A study of Homo sapiens with 4 samples.

Results

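The mitochondrial ribosomal RNAs are the 12S rRNA, encoded by MT-RNR1 (ENSG00000211459), and the 16S rRNA, encoded by MT-RNR2 (ENSG00000210082). They are 2 of the 62700 genes annotated on GRCh38, and their crosslinking to PR100-FLAG is described here nucleotide by nucleotide. Both genes were chosen because of their position on the mitochondrial chromosome and with their counts already known, so their levels are given as a description and were not tested. MT-RNR1 spans chrM:648-1601 (954 nt) and MT-RNR2 spans chrM:1671-3229 (1559 nt), both on the plus strand, each as a single non-coding exon. PR100 is a chain of proline-arginine dipeptide repeats of the kind made from the expanded C9orf72 repeat in amyotrophic lateral sclerosis and frontotemporal dementia. It carried a triple FLAG tag and was overexpressed from a transiently transfected pcDNA5 Flp-In plasmid in HEK293T, a transformed human embryonic kidney line. All 4 libraries are of this 1 condition, with 150 ng/ml doxycycline for 24 h and a single UV dose of 160 mJ/cm2 at 254 nm. The FLAG control and GA100 were not analysed here, and no value below is a difference from a control. Nothing in the labels says that the replicates were separate cultures, and the spread between them may therefore be technical. CLIP counts do not measure expression, so the cell line was not checked against marker genes.

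The method, iiCLIP, ligates an adaptor to the RNA that stays crosslinked to the immunoprecipitated protein and copies it into cDNA. The copying stops at the crosslink, so the nucleotide before the start of each cDNA is taken as the crosslinked position, and a random barcode lets PCR copies be collapsed. An event is 1 unique cDNA. The libraries held 334057, 604816, 125694 and 179636 events in replicates 1 to 4, with random barcodes of 7, 7, 5 and 7 nt. Complexes were purified by SDS-PAGE in replicates 1 to 3 and with beads in replicate 4. Replicate 3 was the shallowest library and the one with the short barcode.

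The mitochondrial ribosome makes the few proteins that the mitochondrial genome encodes. The 12S rRNA forms the core of its small subunit, which reads the mRNA, and the 16S rRNA forms the core of its large subunit, which joins the amino acids. Both are cut from a long transcript in which the tRNAs for phenylalanine, valine and leucine (MT-TF, MT-TV and MT-TL1) flank them, and they are assembled with proteins that are made from nuclear genes, the MRPS group for the small subunit and the MRPL group for the large one. Stretches of mitochondrial DNA have also been copied into the nuclear chromosomes during evolution, and reads from such stretches can fit more than 1 place.

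The strongest crosslinked positions of both rRNAs lay in the following stretches of 30 nt, shown because the highest counts of every library turn on them. They are reference sequence of chrM in GRCh38, plus strand, 5′ to 3′, and capitals mark the crosslinked positions described in the next paragraphs.
MT-RNR2 33, chrM:1698-1727: ccttaCtaccagacaaccttagccaaacca
MT-RNR2 153, chrM:1818-1847: ataatAtagcaaggactaacccctatacct
MT-RNR2 439, chrM:2104-2133: agaggAaCagctctttggacactaggaaaa
MT-RNR2 587, chrM:2252-2281: ctcctCacacccaattggaccaatctatca
MT-RNR1 272, chrM:914-943: acccaAgtcaatagaagccggcgtaaagag
MT-RNR1 754, chrM:1396-1425: cttatGAAActtaagggtcgaaggtggatt

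The 16S rRNA was the most crosslinked gene in each of the 4 libraries. It took 5562, 33211, 1468 and 10270 events in replicates 1 to 4, or 1.66%, 5.49%, 1.17% and 5.72% of each library (3.51% ± 2.43, SD, n = 4). Replicates 2 and 4 were high and replicates 1 and 3 were low. The beads library, replicate 4, had the highest share. As the only library of its kind, its purification cannot be told apart from other differences between libraries. Of all events on the mitochondrial chromosome, 90.3% ± 2.12 (SD, n = 4) lay on the 16S rRNA. The opposite strand of the gene carried 1, 7, 0 and 1 events.

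The 12S rRNA took far fewer events, with 119, 641, 35 and 528 in replicates 1 to 4. These were 0.0356%, 0.106%, 0.0278% and 0.294% of the libraries (0.116% ± 0.124, SD, n = 4), and the mean without replicate 4 was 0.0565%. Its rank among all genes was 137, 9, 229 and 4. It was thus among the leading genes in replicates 2 and 4 and well below them in the others. No event lay on its opposite strand. It held 2.60% ± 1.28 (SD, n = 4) of the events on the mitochondrial chromosome.

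Per nucleotide, the 16S rRNA had 28.6, 31.7, 25.7 and 11.9 times the events of the 12S rRNA (24.5 ± 8.73, SD, n = 4). The ratio was above 1 in every library and lowest in the beads library. At positions with no exact nuclear copy behind them, defined further on, the ratio was 16.6, 17.5, 14.8 and 6.77 (13.9 ± 4.90). Fewer molecules of an RNA and less crosslinking per molecule cannot be told apart in these counts.

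The plot of events per kb sets the rRNAs beside the other mitochondrial transcripts. The 13 protein-coding genes, called mRNAs here, had means over the libraries with a median of 118 CPM per kb. The means ran from 73.6 for MT-ND3, a complex I subunit, to 351 for MT-ATP8, an ATP synthase subunit. Behind MT-ATP8 came MT-ATP6, another ATP synthase subunit, with 265, and MT-ND4, a complex I subunit, with 225. MT-ATP8 and MT-ATP6 overlap at chrM:8527-8572, so events there count for both. The 16S rRNA stood at 22516 ± 15574 CPM per kb and the 12S rRNA at 1214 ± 1298 (SD, n = 4). Within each library the 16S rRNA had 212, 240, 215 and 156 times the events per nucleotide of the median mRNA, and 73.9, 95.6, 14.99 and 71.8 times those of the highest mRNA. The 12S rRNA had 7.41, 7.56, 8.37 and 13.1 times the median mRNA. Against the highest mRNA it had 2.58, 3.01, 0.584 and 6.03 times the events per nucleotide. The highest mRNA was taken in each library, and in replicate 2 it was not MT-ATP8. In replicate 3 the 12S rRNA was thus below MT-ATP8, with 35 events on this rRNA and 13 on MT-ATP8.

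The nuclear genes for the proteins of the mitochondrial ribosome, which are made outside mitochondria, were counted as well. Their events are totals over the whole gene, introns included, and are not per kb. None of these genes held as many pooled events as MT-RNR1, which had 1323. The 49 MRPL genes held 989 pooled events with a median of 15 a gene, and the highest was MRPL3 with 82. The 29 MRPS genes held 913 with a median of 23, and the highest was MRPS25 with 127. The median over all 20046 protein-coding genes was 15. Together these genes took 0.0818% ± 0.00803 and 0.0730% ± 0.0140 of the events (SD, n = 4). None of them reached 200 pooled events, as 703 of the protein-coding genes did.

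Events gathered at the border of the valine tRNA with the 16S rRNA. An event is placed on the nucleotide before the cDNA start, so a cDNA that starts on the first nucleotide of MT-RNR2 counts for MT-TV. Whether such cDNAs stopped at a crosslink was not tested. MT-TV had 2212 ± 2032 CPM per kb (SD, n = 4), but 223 of its 234 pooled events lay on its last 3 nt, with 16, 160, 0 and 47 in replicates 1 to 4. The remaining 66 nt of this tRNA held 3, 5, 1 and 2 events. The first 9 nt of MT-RNR2 held 63, 814, 16 and 136 events and the next 10 nt held 39, 217, 1 and 48. A significant cluster of the pooled libraries crossed the border at chrM:1669-1679, with 1211 cDNAs. The other borders held few events. The last 10 nt of MT-TF held 3 pooled events, the first 10 nt of MT-RNR1 held 7, and the last 25 nt of MT-RNR1 and of MT-RNR2 held 1 and 2. The leucine tRNA MT-TL1, directly behind MT-RNR2, held 11. Every position of the segments of MT-TF and MT-RNR1 was followed by an exact nuclear copy, so that reads could be lost in mapping. The copies had 61 to 70 nt at the end of MT-TF and 51 to 60 nt at the start of MT-RNR1. At the end of MT-RNR1 they had 52 to 76 nt. At chrM:1668-1679, the border with many events, they had 29 to 40 nt. The low counts at the borders of MT-TF and MT-RNR1 therefore say nothing about binding. These segments were drawn after the counts had been seen.

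Crosslinking of the 16S rRNA covered most of its length. Events fell on 701, 1037, 225 and 1009 of its 1559 positions in replicates 1 to 4 and on 1206 in the pooled libraries. A crosslinked position carried on average 7.93, 32.0, 6.52 and 10.2 cDNAs. The same mean over all positions of each library was 1.47, 1.67, 2.16 and 1.15. The 10 strongest positions by mean CPM, 0.641% of the rRNA, held 17.2%, 19.2%, 10.3% and 10.1% of its events. The 20 strongest held 20.6% on average. The signal was thus spread over many positions, with a few high ones on top.

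**Figure D1:**
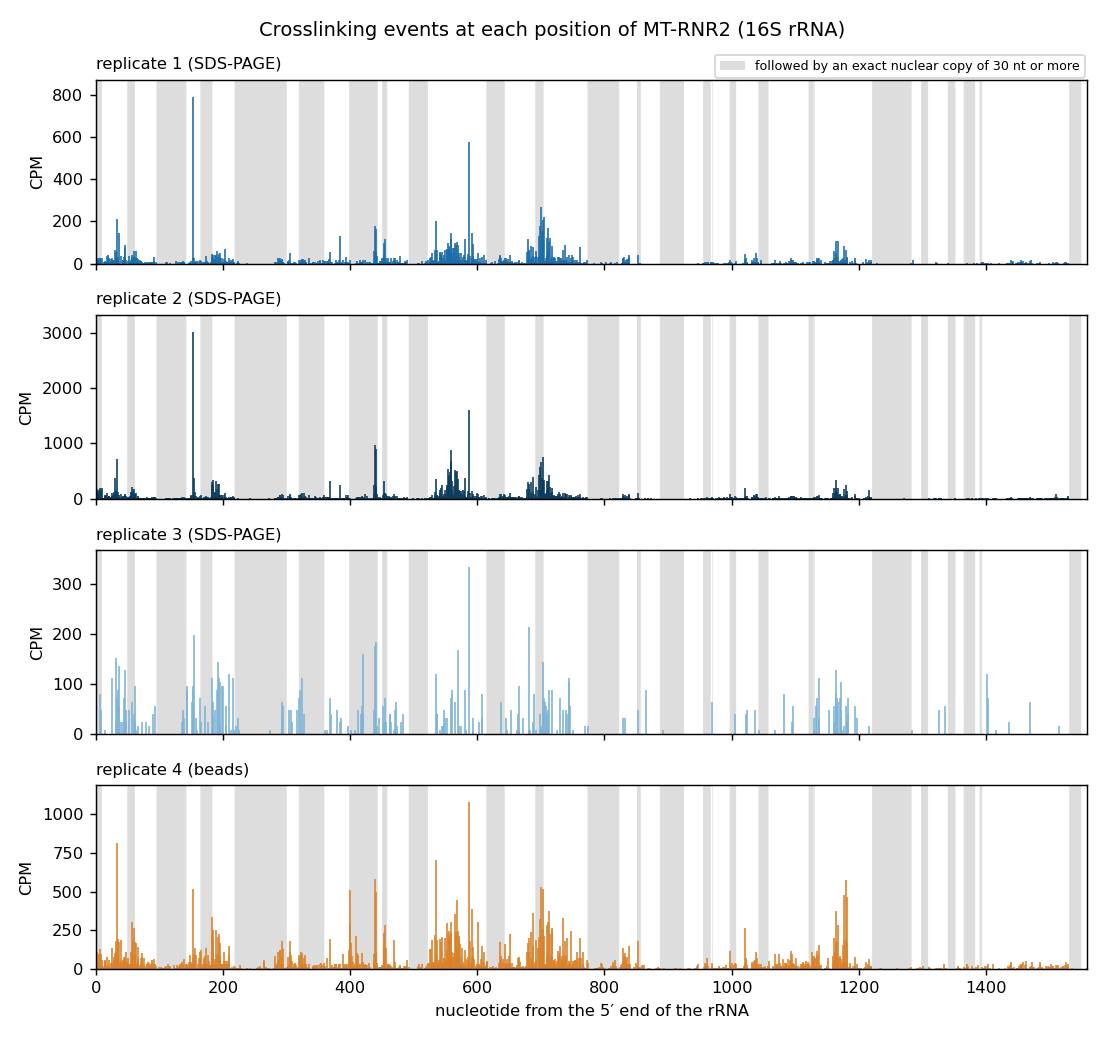
Events in CPM at each nucleotide of MT-RNR2, counted from its 5′ end, with 1 panel per library and grey bands where the sequence after a position has an exact copy of 30 nt or more in the nuclear genome. The same regions are high in each panel, the positions 153 and 587 stand out in replicates 1 and 2, and the 3′ part of the rRNA is low in all 4 panels.

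The strongest position on average was nucleotide 153 of the 16S rRNA, an A at chrM:1823. It held 264, 1827, 11 and 93 cDNAs, or 4.75%, 5.50%, 0.749% and 0.906% of the events of the rRNA, and ranked 1, 1, 33 and 7. It led in replicates 1 and 2 and was far from leading in the others. Nucleotide 587, a C at chrM:2257, was high in every library, with 192, 972, 42 and 194 cDNAs, or 3.45%, 2.93%, 2.86% and 1.89%, and ranks 2, 2, 1 and 1. An A at nucleotide 439 (chrM:2109) held 59, 592, 22 and 105 cDNAs, and a C at nucleotide 441 (chrM:2111) held 54, 544, 23 and 89. These neighbours kept ranks between 3 and 11 throughout. A C at nucleotide 33 (chrM:1703) held 71, 437, 9 and 146 cDNAs, with ranks of 5, 7, 48 and 2.

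Such counts were set against the number of different barcodes that a library could hold. The highest count at a position of the rRNAs was 1.61%, 11.2%, 4.10% and 1.18% of the barcodes that were possible in replicates 1 to 4. What part barcodes shared by chance had in these counts was not tested. With each position counted once, the 16S rRNA held 0.407% of the crosslinked positions on average, a share that its length limits.

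Along the 16S rRNA, divided into 10 parts of nearly equal length, events gathered in the 5′ portion. The fourth part (nucleotides 469 to 624) took 25.2%, 25.4%, 13.5% and 21.0% of the events and the fifth (625 to 780) took 25.4%, 22.1%, 16.7% and 20.6%. The first part took 17.4% ± 2.11 (SD, n = 4). Downstream of nucleotide 780 the only other part with many events was the eighth (1093 to 1248), with 9.65% ± 2.51. The ninth part took 0.999% ± 1.08 and the last, from nucleotide 1405 on, 1.45% ± 0.441. Over positions without an exact nuclear copy of 30 nt or more, the density relative to all such positions was 2.31 ± 0.606 in the fourth part and 0.135 ± 0.0448 in the last (SD, n = 4), where 136 of the 155 positions had no such copy. Shorter and inexact copies remain in this class, and their part was not tested.

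On the 12S rRNA the counts were sparse, and events fell on 61, 201, 10 and 239 of its 954 positions. The crosslinked positions carried on average 1.95, 3.19, 3.50 and 2.21 cDNAs. The strongest was an A at nucleotide 757 (chrM:1404) with 9, 38, 5 and 33 cDNAs and ranks of 1, 1, 4 and 1. The 3 positions before it, in the GAAA run shown above, were also among the 5 strongest by mean CPM. Nucleotide 756 held 9, 24, 0 and 15 cDNAs, 755 held 1, 13, 1 and 12, and 754 held 4, 21, 0 and 11, so they were weak or empty in replicate 3. An A at nucleotide 272 (chrM:919) held 6, 8, 7 and 6 cDNAs and shared the first rank in replicate 3. The 10 strongest positions by mean CPM held 25.2%, 19.3%, 74.3% and 20.6% of the events on this rRNA, a mean of 34.9% ± 26.4 (SD, n = 4). Without replicate 3, where only 10 positions had an event at all, the 10 strongest of the other libraries held 22.6%.

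**Figure D2:**
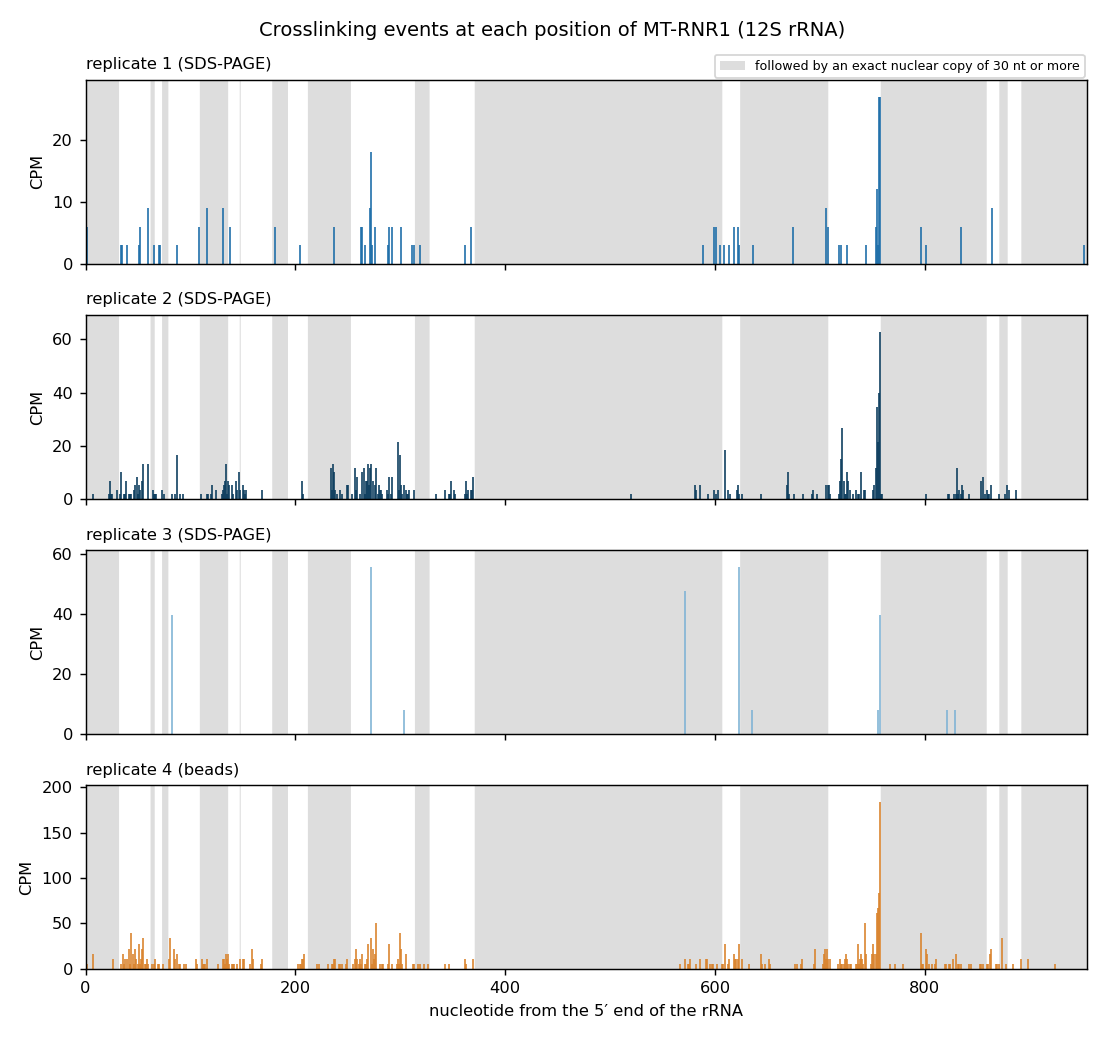
Events in CPM at each nucleotide of MT-RNR1, counted from its 5′ end, with 1 panel per library and grey bands where the sequence after a position has an exact copy of 30 nt or more in the nuclear genome. A peak near nucleotide 757 appears in all 4 panels, directly before a grey band, and replicate 3 has events at 10 positions only.

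The eighth of 10 parts of the 12S rRNA (nucleotides 669 to 764) held the most events on average, with 30.3%, 31.0%, 17.1% and 29.9%. The third held 17.9% ± 2.60 and the first 14.2% ± 1.90 (SD, n = 4). The fifth part (383 to 477) held none in any library, and each of its 95 positions was followed by a nuclear copy of at least 30 nt. The sixth part also had no position without a copy, and held 10 pooled events. An absence of events there says nothing about binding.

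Nuclear copies were therefore counted for every position. Since only reads with a single place in the genome were kept by the authors, a read that starts right after the position and has an exact copy on another chromosome would be lost. Of the positions of the 12S rRNA, 323 (33.9%) had no exact copy of 30 nt or more behind them, 191 had one of 30 to 49 nt, and 440 (46.1%) had one of 50 nt or more. For the 16S rRNA these numbers were 958 (61.4%), 364 and 237 (15.2%). The 12S rRNA was thus the one with more sequence shared with the nuclear chromosomes.

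Events per nucleotide fell with the length of the copy, except on the 12S rRNA in replicate 3, where the middle class held none. Positions without a copy are here those with none of 30 nt or more. In the 12S rRNA the events per nucleotide were 0.269, 1.502, 0.0805 and 1.15 in replicates 1 to 4 at positions without a copy. They were 0.110, 0.571, 0 and 0.440 at those with a copy of 30 to 49 nt. With copies of 50 nt or more they were 0.0250, 0.107, 0.0205 and 0.161. The first class was above the last in each library. On the 16S rRNA they were 4.48, 26.3, 1.19 and 7.82 without a copy, 3.20, 20.7, 0.695 and 5.98 with a copy of 30 to 49 nt, and 0.430, 2.17, 0.308 and 2.52 with a longer one. This order on the 16S rRNA was the same in the 4 libraries. Positions without a copy held 75.9% ± 2.15 of the events on the 16S rRNA and 73.4% ± 2.13 on the 12S rRNA (SD, n = 4).

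The peak of the 12S rRNA lay at the edge of such a stretch. Behind nucleotide 757 no exact nuclear copy was found, whereas from the next position (chrM:1405) a copy of at least 100 nt began, on chromosome 11. Pooled events went from 85 at the first of these positions to 1 at the second. What part mapping had in this edge was not tested. At the strong position 587 of the 16S rRNA, pooled events went from 1400 to 18 at the next position, which had an exact copy of 21 nt behind it.

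Nuclear genes with near copies of the 16S rRNA, the MTRNR2L group, took fewer events than the rRNA itself. RefSeq places 13 of them on nuclear chromosomes of GRCh38.p14, and 12 had events on either strand, 649 in all. MTRNR2L12 had 42, 227, 19 and 27 events, or 315 pooled, MTRNR2L2 had 169 and MTRNR2L8 had 68. Since these genes are nearly identical in sequence to the rRNA, which of the transcripts gave such a read is uncertain.

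Positions of the 16S rRNA were compared between libraries as a description, since neighbouring positions share their cDNA ends and base content. Spearman's rho over its 1559 positions was 0.785 for replicates 1 and 2, 0.701 for 1 and 4, and 0.791 for 2 and 4. The pairs with replicate 3 gave 0.366, 0.378 and 0.348. In bins of 10 nt, rho was 0.954, 0.906 and 0.924 among replicates 1, 2 and 4 and between 0.753 and 0.781 with replicate 3. Replicate 3, with events on 225 of these positions, stood apart from the others in rho, and the beads library did not. The part of its low depth in this was not tested. Of the 20 strongest positions of each library, 7 were common to replicates 1, 2 and 4, and 4 were common to all libraries, at chrM:2109, 2111, 2257 and 2373. Those at chrM:2109, 2111 and 2373 were followed by exact nuclear copies of 33, 31 and 30 nt.

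The 12S rRNA was less alike between libraries. Over its positions rho was 0.276, 0.295 and 0.443 for replicates 1 and 2, 1 and 4, and 2 and 4, and between 0.0829 and 0.144 with replicate 3. In bins of 10 nt these values were 0.598, 0.652 and 0.777, and between 0.192 and 0.301. The mean over the 6 pairs was 0.225, and 0.338 without replicate 3. The positions at chrM:919 and 1404 were among the 20 strongest of every library. At 35 to 641 events a library, most positions of this rRNA could not be told from their neighbours in the order.

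Significant clusters, called by the authors with iCount, covered parts of both rRNAs. On the 16S rRNA there were 22, 23, 23 and 32 clusters in the lists of replicates 1 to 4. They held 28.1%, 24.6%, 54.2% and 21.3% of its crosslinked positions, where the background over all crosslinked positions of the same list was 1.6%, 3.68%, 4.14% and 3.09%. In the 12S rRNA 3, 6, 1 and 9 clusters held 37.7%, 50.2%, 20% and 35.1% of the crosslinked positions. In the pooled list the shares were 264 of 1206 positions (21.9%) for the 16S rRNA and 39.2% for the 12S rRNA, beside a background of 5.01%. The counts of both genes were known when they were chosen, and clusters are called on such counts, so nothing is read from the excess.

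Of the 24 pooled clusters on the 16S rRNA, 13 overlapped a cluster in each of the 4 single lists, 7 in 3 of them and 4 in 2. Of the 12 pooled clusters on the 12S rRNA, 0 did so in all 4 lists, 3 in 3 lists, 2 in 2 lists, 6 in 1 list and 1 in none. An overlap of 1 nt was enough. The 16S clusters took 19.4% of all cDNAs in the pooled cluster list.

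The richest pooled cluster on the 16S rRNA spanned nucleotides 552 to 587 (chrM:2222-2257) and held 8276 cDNAs, 16.4% of those on this rRNA. Its share was 14.5%, 18.8%, 7.56% and 10.8% in replicates 1 to 4, and it ended at the strong position 587. The cluster at 679 to 714 (chrM:2349-2384) held 7009 cDNAs, 13.9% of the total, with its highest count at nucleotide 703. Its share was 16.8%, 14.8%, 8.58% and 10.2%. Another, at 1159 to 1182 (chrM:2829-2852), was a narrow peak in the otherwise low 3′ portion, with 2582 cDNAs and shares of 4.69%, 4.56%, 6.61% and 6.89%. It had 108 pooled cDNAs per nucleotide, beside 7.40 in the 10 nt before and 8.30 in the 10 nt after. On the 12S rRNA the cluster at 719 to 757 (chrM:1366-1404) held 333 cDNAs, with shares of 23.5%, 26.5%, 17.1% and 24.4%, followed by one at 257 to 301 (chrM:904-948) with 233 and one at 34 to 60 (chrM:681-707) with 115.

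Guanine was seldom the crosslinked base. On the 16S rRNA 7.84%, 7.53%, 5.79% and 7.52% of the events lay on G, which makes up 17.3% of the rRNA, a log2 ratio of -1.28 ± 0.20 (SD, n = 4) that was negative in 4 of 4 libraries. Cytosine took 31.1% ± 1.62 of the events against 25.5% of the sequence, a log2 ratio of 0.29 ± 0.08 that was positive in 4 of 4. On the 12S rRNA the log2 ratio of G was -0.82 ± 0.14, and A took 44.6% ± 7.82 against 33.0%, a log2 ratio of 0.40 ± 0.24. These ratios rest on the positions with many cDNAs. With each crosslinked position counted once they were -0.43 ± 0.36 for G and 0.03 ± 0.07 for C on the 16S rRNA, and -0.34 ± 0.65 for G and 0.10 ± 0.17 for A on the 12S rRNA, the last 3 within their spread. A sign-flip permutation test, exact and two-sided, gave p = 0.125 for each of the 4 ratios over events, and adjusted p = 0.2 over the 8 base tests. With 4 libraries 0.125 is the smallest p that this test can give, so no value here can pass a threshold of 0.05. A and U on the 16S rRNA had log2 ratios of 0.09 ± 0.14 and 0.12 ± 0.19, within their spread (exact p = 0.375 each, adjusted 0.429). On the 12S rRNA U had a log2 ratio of 0.24 ± 0.49 (exact p = 0.5), and C took 18.3% ± 12.3 against 26.5%, with none of the 35 events of replicate 3 on a C.

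The preference moved with the nucleotide looked at. At the first base of the cDNA, 1 nt after the crosslinked position of the 16S rRNA, the log2 ratio was -1.98 ± 0.28 for G, 0.60 ± 0.06 for A and -0.30 for C (SD, n = 4). UV crosslinking and the ligation and cutting of RNA have base preferences of their own, and their part in these ratios was not tested.

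The study found GAAGA enriched at significant crosslinking sites beside random positions in the same genes, and showed GANGA motifs along example transcripts. Here GANGA was searched on the RNA strand with A, G or C as its middle base. It occurred 7 times in the 16S rRNA and 3 times in the 12S rRNA. All events were set against all positions of the rRNA, so the shares below are not on the study's measure. The 16S rRNA has GAAGA at nucleotides 300, 619, 1022 and 1051, GAGGA at 435 and GACGA at 243 and 1046. The share of events with a motif starting between 5 nt before and 30 nt after was 10.1%, 9.21%, 11.4% and 11.6%, below the 13.4% of all positions in each library (difference -2.83 percentage points ± 1.14, SD, n = 4, exact p = 0.125). The direction turned with each position counted once, where the difference was 0.763 ± 0.634, and it was -0.67 ± 1.46 without positions followed by a nuclear copy of 20 nt or more. For GAAGA alone the share of events on the 16S rRNA was 7.01%, 5.36%, 4.84% and 8.15%, beside 8.79% of positions. The GAGGA at 435 ends on the strong position 439, which counts as near a motif. The strong position 441 falls just outside the window and does not. The 12S rRNA has GAGGA at 550 and 902, GACGA at 948, and no GAAGA. Its share was 1.18% ± 1.03 beside 11.3% of positions (difference -10.1 percentage points ± 1.03, exact p = 0.125). It shrank to -3.75 ± 0.389 without positions followed by a copy of 30 nt or more, and to -1.55, with no event near a motif in any library, at a limit of 20 nt. These lie in the sixth part, without a position free of copies, and in the last part, which held 2.52% ± 1.94 of the events.

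Events lay at positions with a higher predicted unpaired probability than the rRNAs as a whole. The mean unpaired probability from local folding was 0.707, 0.721, 0.656 and 0.698 over the events on the 16S rRNA, beside 0.570 over all its positions (difference 0.125 ± 0.0280, SD, n = 4, higher in 4 of 4 libraries). For the 12S rRNA it was 0.644 ± 0.0333 beside 0.538 (difference 0.106 ± 0.0333, higher in 4 of 4). The exact sign-flip p was 0.125 in both cases. With each position counted once the differences were smaller, 0.0556 ± 0.0213 on the 16S rRNA and 0.0398 ± 0.0102 on the 12S rRNA. Local folding of the bare sequence leaves out long-range pairs and ribosomal proteins, so these are values of the prediction and not of the ribosome.

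Conserved functional stretches were located by short letter matches and counted with 25 nt on each side. Around GTGCCAG, a conserved loop of the small subunit rRNA near the mRNA path (nucleotides 240 to 246 of the 12S rRNA), there were 10, 91, 0 and 40 events, or 7.54% ± 5.83 of the rRNA on 5.97% of its positions. Of these 57 positions 19 had no exact nuclear copy of 30 nt or more, and shorter exact copies remain among them. Their density relative to all such positions of the 12S rRNA was 1.17 ± 0.847 (SD, n = 4), with 0 in replicate 3. Around CACACCG, in the decoding region (832 to 838), there were 2, 38, 2 and 30 events. Of those 57 positions 5 had no exact nuclear copy of 30 nt or more, but had copies of 25 to 29 nt. Around GATAACA, in the peptidyl transferase ring of the 16S rRNA (1264 to 1270), there were 6, 7, 1 and 6 events, or 0.0639% ± 0.0357 of the rRNA on 3.66% of its positions. Of these 57 positions 13 had no exact copy of 30 nt or more. Their density was 0.0482 ± 0.0442 relative to all such positions of the 16S rRNA (SD, n = 4). Crosslinks around this 1 match were thus few, also where no exact copy of 30 nt or more was found. Low density was not particular to this window. By the same measure it was 0.144 ± 0.181 in the ninth part of the rRNA, which holds the match, and 0.135 ± 0.0448 in the last.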

How the data were processed

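The authors processed the reads of the 4 PR100-FLAG libraries with iMaps and iCount. They collapsed PCR duplicates by random barcode and mapped reads with STAR (version not given in the sources used here) to GRCh38 with Gencode 27, allowing 2 mismatches and keeping unique mappers. The values the authors deposited are counts of unique cDNAs per crosslinked position and strand, and summed counts per significant cluster (FDR under 0.05), without normalisation. The pooled counts were the exact sum of the libraries.

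Here the counts were placed on GENCODE 44, divided by library totals (CPM), and summarised as mean ± SD over 4 libraries. Exact nuclear copies were searched on both strands of 193 sequences of GRCh38, without alternate and patch sequences, from 20 nt and recorded up to 100 nt. Pairing was predicted with RNAplfold 2.7.2 (window 150, span 100). Base ratios used a pseudocount of 0.5 per base and 2 in the total. The reference holds an unspecified base, N, inside MT-RNR2, which was not counted as a base. Exact two-sided sign-flip tests were adjusted by Benjamini-Hochberg over the 8 base tests, and the motif and pairing tests stand unadjusted. The base test was tested on simulated data. Genes, lists and tests were chosen with earlier results of these data known. Named were the rRNAs, their neighbouring tRNAs, the 3 mitochondrial mRNAs with the most events per kb, the 3 genes most like each rRNA over the libraries, the 5 strongest positions and the 3 richest pooled clusters of each rRNA. MT-ND3, the MRPL, MRPS and MTRNR2L genes and the cluster at the MT-TV border were named after their values were seen. Alternatives counted positions once, left out copies, strong positions or libraries, and changed bins, offsets, motifs and folding. Python 3.11.15, numpy 2.4.6 and scipy 1.17.1 were used.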

Additional observations from a re-analysis of the deposited data

Results flagged for a closer look

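In 4 of 21 quantities with a value in each library, 1 library lay far from the other 3, by the gap to its nearest neighbour as a share of the whole range. Chance sets apart about 1 in 20 groups. It was replicate 3 each time. On MT-RNR1 the 10 positions that were strongest over the libraries held 74.3% of its events (ratio 0.893), its log2 ratio of C was -4.29 (ratio 0.961) and its share in the part with the most events, nucleotides 669 to 764, was 17.1% (ratio 0.919). On MT-RNR2 its log2 ratio of G was -1.57 (ratio 0.859). Replicate 3 held 35 events on MT-RNR1 at 10 positions and 1468 on MT-RNR2, the lowest counts of the 4 libraries, and the value for C is that of 0 events with the pseudocount. The part of depth and of its 5-nt barcode in these values was not tested. Without replicate 3 the mean log2 ratio of C on MT-RNR1 was -0.12 in place of -1.17, and that of G on MT-RNR2 was -1.18 in place of -1.28.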

How the results depend on the processing

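For 25 results 224 values were computed under alternative settings. Of the 129 values of base ratios, motif and pairing differences, 123 kept their sign and 6 changed it, and 19 of the 123 lay 1 SD or more from the reported value. Those of counting each position once are given beside the results. Of the other 95 values, 18 moved by 1 SD or more or, for counts of clusters, by over 1.5 times, and 77 did not. The settings without positions that have a 20-nt nuclear copy were added after seeing the data. With each position counted once, the share of MT-RNR2 was 0.407%, its plus-strand share 99.9%, its 10 strongest positions held 1.85%, the fourth part of its length 13.5%, the eighth part of MT-RNR1 19.1%, the 16S to 12S ratio was 6.64, and the motif difference of MT-RNR2 changed sign to 0.763 percentage points. Counted once, 10 positions can hold no more than 10 of the crosslinked positions, and an rRNA no more than its length. The drops in these shares and in the ratio are therefore partly set by the measure. Without positions followed by a 30-nt copy the ratio was 13.9 and the fourth part of MT-RNR2 held 27.7%. Without those followed by a 20-nt copy, the ratio was 11.7, the fourth part held 33.7%, the 10 strongest positions of MT-RNR2 held 20.3%, the eighth part of MT-RNR1 held 40.3%, and the log2 ratios of A and U on MT-RNR2 changed sign to -0.00725 and -0.0148. The 20 strongest positions of MT-RNR2 held 20.6%. Within clusters, MT-RNR1 took 0.716% and MT-RNR2 22.9% of cDNAs. In 10-nt bins the mean correlation was 0.458 on MT-RNR1 and 0.850 on MT-RNR2. Without its strongest position the eighth part of MT-RNR1 held 19.96%. On MT-RNR2 the log2 ratio of C was -0.0672 at the base before and -0.30 at the base after, and that of U was -0.0278 at the base after. That of G was -0.43 with each position counted once, and -0.51 at the base before. The cause of these shifts was not tested, apart from what each setting removes. Leaving out each library in turn gave ranges of 0.0565 to 0.145% for MT-RNR1, 2.77 to 4.29% for MT-RNR2 and 22.1 to 28.7 for the ratio. No value moved by more than 1 SD, but for a plain mean over 4 libraries arithmetic fixes this outcome, so nothing is read from it. The counts of unmoved values above include these settings. GAAGA alone gave no value on MT-RNR1, which has none. No paired analysis was possible because all libraries belong to 1 group. The limits are depth on MT-RNR1, mapping next to nuclear copies, and the lack of a control library here, without which background crosslinking of abundant RNA is contained in every value.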

Other observations

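Genes whose share moved over the 4 libraries most like that of the rRNAs were looked up among 762 genes with at least 200 pooled events, with an event in every library, by the root mean square over the libraries of the difference in log2 of CPM relative to the gene's mean. For MT-RNR2 these were SF3B2, a splicing factor, at 0.314, EP300, a histone acetyltransferase, at 0.334 and EIF4G1, a translation initiation factor, at 0.346. For MT-RNR1 they were ENSG00000268981 at 0.157, RPL3, a protein of the cytosolic large ribosomal subunit, at 0.417 and SF3B2 at 0.510. With 4 libraries this is a description.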
